A study of Mus musculus with 12 samples.

Results

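The haemoglobin genes Hba-a1, Hba-a2, Hbb-bs and Hbb-bt and the erythroid haem synthesis gene Alas2 were followed in RNA from mouse hearts. The 5 genes were chosen by name as the adult haemoglobin genes of this strain and the erythroid form of the first enzyme of haem synthesis. They are 5 of 12866 genes with values in all 12 libraries, and all 5 were among the 11509 tested, a gene being tested when 4 or more libraries had 1 FPKM or more. FPKM is the number of sequenced fragments per kilobase of transcript and per M (mega) of fragments in the library, so that levels of genes of unlike length can be compared. The hearts came from wild-type (WT) C57BL/6 mice in 3 groups of 4 libraries. LPS+XJDHT mice were given lipopolysaccharide (LPS) at 10 mg/kg and XJDHT at 50 mg/kg per day, LPS mice the same LPS dose and saline, and Control mice saline only, with 3 days of treatment in each group. LPS is a cell wall component of Gram-negative bacteria that triggers inflammation, and XJDHT is Xijiao Dihuang decoction, a herbal formula. The labels give neither sex nor age, and nothing in them says whether the hearts were flushed of blood.

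Adult haemoglobin is a tetramer of alpha chains, encoded by Hba-a1 and Hba-a2, and beta chains, encoded in C57BL/6 mice by Hbb-bs and Hbb-bt. Its transcripts are made in erythroblasts of the bone marrow and spleen and persist in reticulocytes, the young red cells that still hold RNA. ALAS2 joins glycine and succinyl-CoA in the mitochondria of erythroid cells, the step that sets the rate of haem synthesis there, while ALAS1 does the same in other tissues. In whole heart such transcripts are usually taken to come with the blood, so a lower level can stand for fewer red cells or for less RNA per red cell, and in bulk RNA these cannot be told apart.

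In the mm10 genome build (GRCm38), Hba-a1 lies on chromosome 11 from 32283511 to 32284465 and Hba-a2 from 32296489 to 32297298, both on the plus strand. Hbb-bt lies on chromosome 7 from 103812524 to 103813996 and Hbb-bs from 103826534 to 103828096, both on the minus strand. Alas2 lies on the plus strand of chromosome X from 150547375 to 150570638. Within each haemoglobin pair the coding sequences are nearly the same, which limits what can be said of a single gene. The 429 coding bases of Hba-a1 and Hba-a2 differ at 1 base, C381T, and the 444 of Hbb-bs and Hbb-bt differ at 1 base, C417T, with 99.8% identity in both pairs. The first base of each token is that of Hba-a1 or Hbb-bs, the second that of Hba-a2 or Hbb-bt, and positions count from 1 at the A of the start codon in the GENCODE coding sequence. The stretches of 60 coding bases around these differences show how little separates the genes, with the differing base in capitals.
Hba-a1: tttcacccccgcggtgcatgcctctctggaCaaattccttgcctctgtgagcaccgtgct
Hba-a2: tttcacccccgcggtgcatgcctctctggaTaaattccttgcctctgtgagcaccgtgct
Hbb-bs: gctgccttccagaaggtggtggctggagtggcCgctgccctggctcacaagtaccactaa
Hbb-bt: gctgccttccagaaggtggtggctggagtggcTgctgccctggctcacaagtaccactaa
A fragment that lies within the shared coding sequence and away from that base cannot be given to 1 gene of its pair, so the pair sums are given beside the single genes.

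Upstream of the genes, the 250 bases before the RefSeq start (GRCm38.p6) are printed 5′ to 3′ on the strand of the gene, since the genes are known targets of the same erythroid factors. The gene spans above follow GENCODE, whose starts lie further upstream, so each window ends inside the span given. Distances below count from the RefSeq start. Capitals mark 4 short motifs on either strand. They are GATAA, read as TTATC on the opposite strand and found in sites of the erythroid factor GATA1. Next is CACCC, read as GGGTG on the opposite strand and found in sites of the erythroid factor KLF1. A common promoter element is CCAAT, whose opposite strand reads ATTGG. The core of the TATA box is TATAA, whose opposite strand reads TTATA.
Hba-a2 (chr11:32296242-32296491, plus strand): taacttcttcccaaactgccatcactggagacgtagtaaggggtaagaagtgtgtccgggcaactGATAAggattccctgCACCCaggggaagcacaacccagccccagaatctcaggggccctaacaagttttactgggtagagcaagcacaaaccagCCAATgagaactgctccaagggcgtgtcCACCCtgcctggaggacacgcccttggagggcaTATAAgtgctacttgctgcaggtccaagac
Hbb-bs (chr7:103827929-103828178, minus strand): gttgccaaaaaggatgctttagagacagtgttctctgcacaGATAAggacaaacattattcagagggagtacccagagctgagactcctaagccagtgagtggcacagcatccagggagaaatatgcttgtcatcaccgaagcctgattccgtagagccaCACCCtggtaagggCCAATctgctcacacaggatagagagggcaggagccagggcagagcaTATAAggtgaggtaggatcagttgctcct
Hbb-bt (chr7:103813924-103814173, minus strand): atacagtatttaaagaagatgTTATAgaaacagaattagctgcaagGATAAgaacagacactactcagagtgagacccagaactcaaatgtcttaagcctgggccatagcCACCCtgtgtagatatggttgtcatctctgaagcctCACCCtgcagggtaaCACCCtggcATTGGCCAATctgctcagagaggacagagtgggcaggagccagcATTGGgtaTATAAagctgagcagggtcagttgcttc
Alas2 (chrX:150547167-150547416, plus strand): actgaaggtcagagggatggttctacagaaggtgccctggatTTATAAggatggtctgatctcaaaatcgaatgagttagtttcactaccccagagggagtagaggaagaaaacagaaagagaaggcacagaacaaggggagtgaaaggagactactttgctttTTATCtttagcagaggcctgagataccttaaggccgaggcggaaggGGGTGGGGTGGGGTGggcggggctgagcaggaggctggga
The window of Hba-a1 (chr11:32283422-32283671) is left out because it shares an unbroken run of 247 bases with that of Hba-a2. Each of the 5 windows held GATAA once, in Alas2 on the opposite strand, and GATAA was present in 23.0% of the 27025 mouse windows of this length. CACCC was found 3 times in Hbb-bt and in Alas2, 2 times in each alpha gene and 1 time in Hbb-bs, and was present in 51.3% of all windows. The matches of Alas2 to CACCC run into each other in 1 stretch. CCAAT (34.5% of all windows) was in all 4 haemoglobin windows and not in that of Alas2. TATAA (23.5%) stood between 27 and 30 bases before the start in the 4 haemoglobin genes, while in Alas2 the nearest match was 207 bases before it and overlaps its own complement. These are matches of letters and were not tested for binding.

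The libraries held 73.76 to 77.81 M fragments, a depth recovered from the spacing of the values. Defining red cell markers were scarce: of 11 fixed markers of erythrocytes and erythroblasts, 1 had values in all libraries, and it did not pass in any of the 3 comparisons. Of the rest, Slc4a1, Klf1 and Gata1, among others, were not analysed here, so the erythroid label rests on the haemoglobin genes and Alas2. Heart muscle transcripts were abundant in every library, Myh6, a myosin motor of the contracting heart, averaging 1918 FPKM in LPS+XJDHT, 1990.4 FPKM in LPS and 4446 FPKM in Control. LPS replicate 2 had the highest value among the LPS libraries for each of the 5 genes, and results that rest on it are given with and without it. LPS+XJDHT replicate 2 had 0.205 FPKM summed over 4 Y-linked genes, against 20.4 to 61.9 FPKM in the other 11 libraries. Replicates are separate libraries by their labels, each named by its own number.

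By group means, the 4 haemoglobin genes were lower after LPS and lowest with LPS and XJDHT together. Not all of these differences passed the tests given below. Summed over all 4, haemoglobin reached 252, 247, 124 and 160 FPKM in LPS+XJDHT, 394, 798, 292 and 236 FPKM in LPS, and 1271, 1340.1, 1312 and 1374 FPKM in Control. The group means were 196 ± 64.1 FPKM in LPS+XJDHT, 430.04 ± 254 FPKM in LPS and 1324 ± 43.7 FPKM in Control (SD, n = 4 each). Control hearts were thus alike in this sum, with an SD of 3.30% of the mean, whereas the SD was 32.7% in LPS+XJDHT and 59.1% in LPS. They were less alike in its parts, with a Control SD of 21.5% for the alpha sum and 13.9% for the beta sum. Among single genes the Control SD ran from 8.59% for Hba-a1 to 38.7% for Hba-a2. As fragments, haemoglobin took 80.6 to 160 per M fragments of the library in LPS+XJDHT, 151 to 506 in LPS and 813 to 878 in Control. The ranges of LPS+XJDHT and LPS overlapped, and neither reached that of Control.

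**Figure D1:**
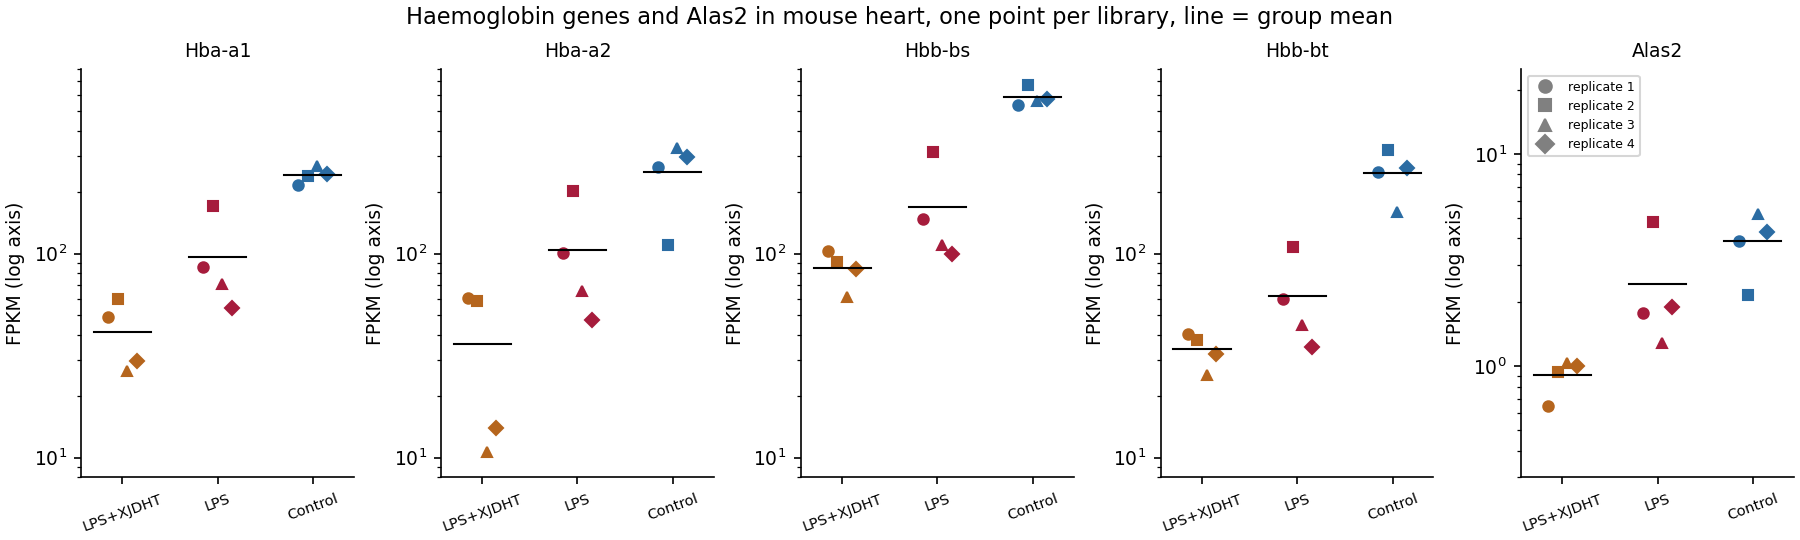
FPKM of the 5 genes (log axis) in each library of LPS+XJDHT, LPS and Control, with 1 point per library, the marker shape giving the replicate number and the line the group mean. The 4 LPS+XJDHT libraries of Hbb-bs sit between 61.2 and 103 FPKM and the LPS libraries between 99.8 and 316 FPKM, all below the Control libraries, and LPS replicate 2 is the highest LPS library in every panel.

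Among the alpha genes, Hba-a1 had 48.8, 59.6, 26.5 and 29.7 FPKM in LPS+XJDHT, 86.2, 171, 71.2 and 54.0 FPKM in LPS, and 217, 239, 267 and 245 FPKM in Control. Every LPS and LPS+XJDHT library lay below every Control library. Hba-a2 had 60.5, 58.8, 10.7 and 14.0 FPKM in LPS+XJDHT, 101.01, 203, 65.3 and 47.4 FPKM in LPS, and 265, 110.3, 328 and 296 FPKM in Control. Control replicate 2 was low for this gene alone among the alpha pair, and it lay within the range of the LPS libraries. Added up, the alpha genes averaged 77.2 ± 42.7 FPKM in LPS+XJDHT, 199.9 ± 122 FPKM in LPS and 492 ± 106 FPKM in Control (SD, n = 4 each). LPS and Control overlapped in this sum, with LPS replicate 2 at 375 FPKM and Control replicate 2 at 350 FPKM.

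Among the beta genes, Hbb-bs was the most abundant haemoglobin transcript, with 103, 90.9, 61.2 and 83.7 FPKM in LPS+XJDHT, 148, 316, 111 and 99.8 FPKM in LPS, and 537, 668, 557 and 570.0 FPKM in Control. Hbb-bt had 40.2, 37.8, 25.3 and 32.4 FPKM in LPS+XJDHT, 59.6, 107, 44.6 and 34.8 FPKM in LPS, and 252, 322, 159 and 263 FPKM in Control. For both genes the Control libraries lay above all others, while the LPS+XJDHT and LPS libraries overlapped. The beta sum averaged 119 ± 24.0 FPKM in LPS+XJDHT, 230.1 ± 132 FPKM in LPS and 832 ± 116 FPKM in Control (SD, n = 4 each).

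Alas2 was present at a low level, about the size of the limit for testing in LPS+XJDHT. It had 0.652, 0.940, 1.03 and 1.00 FPKM in LPS+XJDHT, 1.78, 4.75, 1.29 and 1.90 FPKM in LPS, and 3.89, 2.16, 5.23 and 4.27 FPKM in Control. Each LPS+XJDHT library lay below each LPS library, and LPS and Control overlapped through LPS replicate 2, which lay above 3 of the 4 Control libraries. Between 98 and 159 fragments stood behind the value in LPS+XJDHT, 203 to 743 in LPS and 331 to 829 in Control. The haemoglobin genes rested on 6088 to 12013 fragments in LPS+XJDHT, 11157 to 38823 in LPS and 61300 to 67886 in Control. These values are of the longer of the coding transcripts of Alas2 with values, of 2037 bases, which is listed for all 12 libraries. The shorter one, of 1892 bases, is listed for LPS and Control and was not analysed in LPS+XJDHT. It had 0.407, 0.909, 0.314 and 0 FPKM in LPS and 1.19, 4.35, 2.79 and 2.17 FPKM in Control, every LPS library lying below every Control library. With both transcripts Alas2 had 2.18, 5.66, 1.60 and 1.90 FPKM in LPS, against 5.08, 6.51, 8.02 and 6.45 FPKM in Control. Control replicate 2, low for the longer transcript, was the highest Control library for the shorter one.

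LPS was compared with Control to ask what endotoxin does to these transcripts in the heart. Hbb-bt fell most, to 24.7% of the Control mean, with a log2 fold change of -2.08 (SE 0.31, limma adjusted p = 0.00036). Hbb-bs fell to 28.9% of it (log2 fold change -1.94, SE 0.30, limma adjusted p = 0.00043) and Hba-a1 to 39.5% (log2 fold change -1.46, SE 0.33, limma adjusted p = 0.0044). Hba-a2, at 41.7% of the Control mean, did not pass (log2 fold change -1.36, SE 0.62, limma adjusted p = 0.11), nor did Alas2 at 62.5% (log2 fold change -0.57, SE 0.28, limma adjusted p = 0.13). Thus 3 of the 5 genes fell, where 12.03% of all genes tested fell in this comparison and 26.6% rose. The ranges of LPS and Control did not overlap in the same 3 genes, lower in LPS, as in 12.1% of all genes. The median log2 fold change was -1.46 over the 5 genes and 0.16 over all genes. From the most negative log2 fold change upwards, Hbb-bt was number 40 of 11509, Hbb-bs 53, Hba-a1 143, Hba-a2 175 and Alas2 1283.

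As sums, the beta genes fell by 1.99 on the log2 scale with LPS (SE 0.30, 95% interval -2.65 to -1.34, limma adjusted p = 0.00034) and the alpha genes by 1.45 (SE 0.44, 95% interval -2.42 to -0.48, limma adjusted p = 0.023). The call of the alpha sum was lost without Control replicate 3 or 4 or LPS replicate 3 or 4 (log2 fold changes -1.34, -1.39, -1.32 and -1.18, limma adjusted p up to 0.064). The result for Alas2 turned on 1 library and on the transcripts counted. It fell by 0.85 without LPS replicate 2 (limma adjusted p = 0.010) and by 1.07 with the shorter transcript included (limma adjusted p = 0.020). The median gene moved by 0.16 on the log2 scale, and dividing each library by its median ratio to the mean profile removed this shift and left 2135 genes higher and 2117 lower in LPS, against 3063 and 1384 before. The 5 genes stayed lower in LPS under every scaling tried.

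LPS+XJDHT was compared with LPS, a contrast of the decoction that also differs in the transcripts listed. The LPS+XJDHT libraries list 35802 transcripts, those of LPS and Control 36293. Any effect of unlike processing cannot be told apart from one of XJDHT, here or in LPS+XJDHT against Control. All 5 genes had lower means with XJDHT, and 0 of the 5 passed the limma test over all genes, in which 13 genes passed, 0.113% of those tested and all lower. The mean was 43.0% of the LPS mean for Hba-a1 (log2 fold change -1.14, SE 0.33), 34.5% for Hba-a2 (-1.67, SE 0.62), 50.2% for Hbb-bs (-0.85, SE 0.30), 55.1% for Hbb-bt (-0.73, SE 0.31) and 37.3% for Alas2 (-0.76, SE 0.28). The smallest adjusted p among them was 0.86, for Hba-a1 (limma). Before adjustment all 5 had limma p under 0.05, from 0.0049 for Hba-a1 to 0.039 for Hbb-bt, as did 551 of 11509 genes, 4.79%, of which 200 were lower. The 5 are not separate observations, since the pairs share reads and the 4 haemoglobin genes were all high or all low in single libraries, such as LPS replicate 2.

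The 95% interval of the difference ran from -2.34 to -0.40 for the alpha sum and from -1.48 to -0.17 for the beta sum on the log2 scale, and from -1.36 to -0.15 for Alas2, with no adjustment for the number of genes. Alas2 was the 1 gene of the 5 whose libraries did not overlap between LPS+XJDHT and LPS, a lower and separate position shared by 0.860% of all genes. Without LPS replicate 2 the log2 fold changes were -1.01 for the alpha sum, -0.48 for the beta sum and -0.47 for Alas2, with limma adjusted p of 0.99 for each. The median log2 fold change was -0.85 over the 5 genes and 0.03 over all genes.

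LPS+XJDHT and Control differed most. All 5 genes fell, with all LPS+XJDHT libraries below all Control libraries, where 10.7% of all genes fell, 28.5% rose and 11.9% were lower without overlap. Hba-a2 was at 14.4% of the Control mean, with a log2 fold change of -3.03 (SE 0.62, limma adjusted p = 0.0026), the third most negative of 11509. Hbb-bt was at 13.6% (-2.82, limma adjusted p = 5.1e-05), Hbb-bs at 14.5% (-2.79, limma adjusted p = 4.0e-05) and Hba-a1 at 17.0% (-2.60, limma adjusted p = 0.00011), numbers 6, 7 and 13 in that order. Alas2 was at 23.3% (-1.32, SE 0.28, limma adjusted p = 0.0030), number 183. The alpha and the beta sum each fell by 2.81 (limma adjusted p = 0.00050 and 3.6e-05). These values share the Control libraries with the comparison of LPS with Control and the LPS+XJDHT libraries with that of LPS+XJDHT with LPS.

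**Figure D2:**
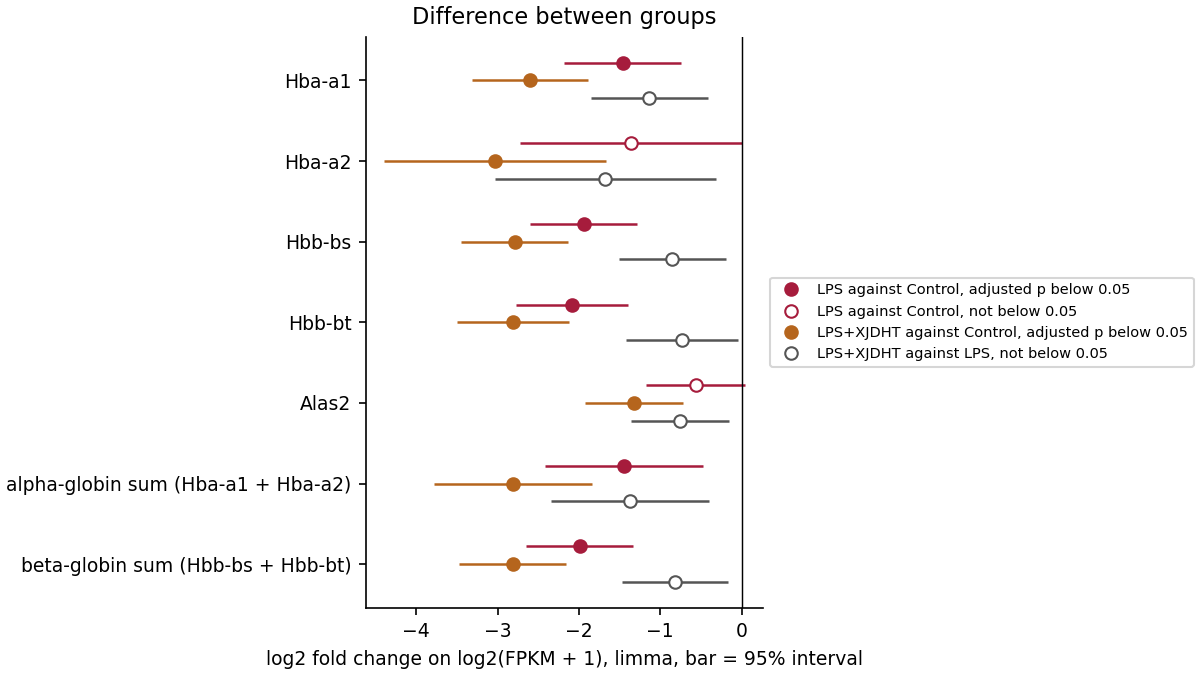
Log2 fold change on the log2(FPKM + 1) scale with its 95% interval for the 5 genes and the 2 sums in the 3 comparisons, filled where the limma adjusted p was below 0.05. The sums fell by 2.81 in LPS+XJDHT against Control, while all values of LPS+XJDHT against LPS are negative and open.

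The balance of alpha to beta transcripts varied between hearts. The ratio of the alpha to the beta sum was 0.766, 0.920, 0.429 and 0.377 in LPS+XJDHT, 0.903, 0.885, 0.880 and 0.754 in LPS, and 0.611, 0.353, 0.831 and 0.651 in Control. Means were 0.623 ± 0.263 in LPS+XJDHT, 0.855 ± 0.0687 in LPS and 0.611 ± 0.197 in Control (SD, n = 4 each). LPS libraries were alike, whereas LPS+XJDHT split into 2 higher and 2 lower hearts. The ratio did not pass between LPS and Control (exact permutation test, two-sided, p = 0.057, adjusted p = 0.34), between LPS+XJDHT and LPS (exact p = 0.26, adjusted p = 0.60) or between LPS+XJDHT and Control (exact p = 0.94, adjusted p = 1). Adjustment was over the 12 tests of 4 such values in 3 comparisons, and the smallest p that 4 against 4 libraries can give is 0.029.

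**Figure D3:**
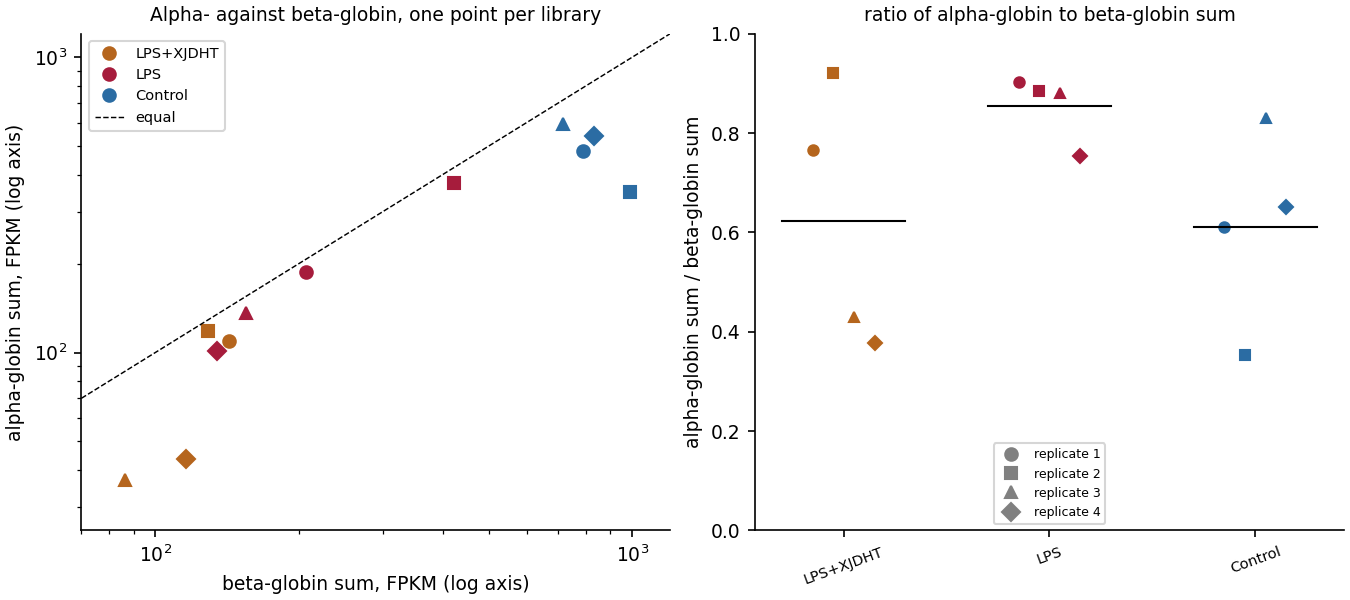
Left, the alpha sum against the beta sum in FPKM (both axes log) for each library, with a dashed line where they are equal. Right, their ratio by library and group mean (line), with LPS between 0.754 and 0.903, LPS+XJDHT between 0.377 and 0.920 and Control between 0.353 and 0.831.

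How the near-identical pairs divided their reads differed between libraries more than between groups. Hba-a1 made up 44.6, 50.4, 71.3 and 67.9% of the alpha sum in LPS+XJDHT, 46.1, 45.7, 52.1 and 53.3% in LPS, and 45.0, 68.4, 44.9 and 45.3% in Control. LPS+XJDHT replicates 3 and 4 and Control replicate 2, the 3 libraries with the lowest alpha to beta ratio, were also the 3 with the highest share of Hba-a1, both measures being low or high as Hba-a2 is low. Hbb-bs made up 71.3 ± 0.763% of the beta sum in LPS+XJDHT, 72.8 ± 1.82% in LPS and 70.4 ± 4.90% in Control (SD, n = 4 each), with Control replicate 3 highest at 77.8%. Neither share passed in any of the 3 comparisons (exact permutation tests, two-sided, adjusted p from 0.60 to 1).

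Alas2 per 1000 FPKM of haemoglobin was 5.26 ± 2.57 FPKM in LPS+XJDHT, 5.73 ± 1.70 FPKM in LPS and 2.94 ± 0.982 FPKM in Control (SD, n = 4 each). Every LPS library, from 4.41 to 8.06, lay above every Control library, from 1.61 to 3.99 (two-sided exact permutation test, p = 0.029, which is the smallest possible, and adjusted p = 0.34). With the shorter Alas2 transcript counted as well, the LPS and Control libraries overlapped. The difference of the means of LPS and Control was then 1.63, against 2.79 without that transcript (exact permutation test, adjusted p = 0.51). On the longer transcript alone, LPS+XJDHT overlapped with both other groups.

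Hba-a1 and Hba-a2 each have an annotated transcript that retains an intron. The Hba-a2 one had 0.686, 4.83, 0.161 and 0.442 FPKM in LPS+XJDHT, 0.457, 0.475, 4.26 and 7.10 FPKM in LPS, and 0.483, 0.216, 0.442 and 0.576 FPKM in Control. The high values of the Hba-a2 transcript were in LPS replicates 3 and 4 and LPS+XJDHT replicate 2. As a share of Hba-a2 fragments it was 1.01, 7.39, 1.35 and 2.82% in LPS+XJDHT, 0.403, 0.208, 5.86 and 13.6% in LPS, and 0.120 to 0.174% in Control. The Hba-a1 one had 0.576, 0.611, 0.375 and 0.208 FPKM in LPS+XJDHT, 0.591, 1.24, 0.470 and 0.519 FPKM in LPS, and 0.483, 0.809, 0.286 and 0.445 FPKM in Control. Its levels overlapped between all groups. As a share of Hba-a1 fragments it was 0.496 to 1.01% in LPS+XJDHT, 0.468 to 0.681% in LPS and 0.0757 to 0.239% in Control. For both genes the share in each LPS+XJDHT and LPS library was above that in each Control library, in which the haemoglobin transcripts that form the denominator were higher on average. These transcripts were singled out after their values were seen and were not tested.

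**Figure D4:**
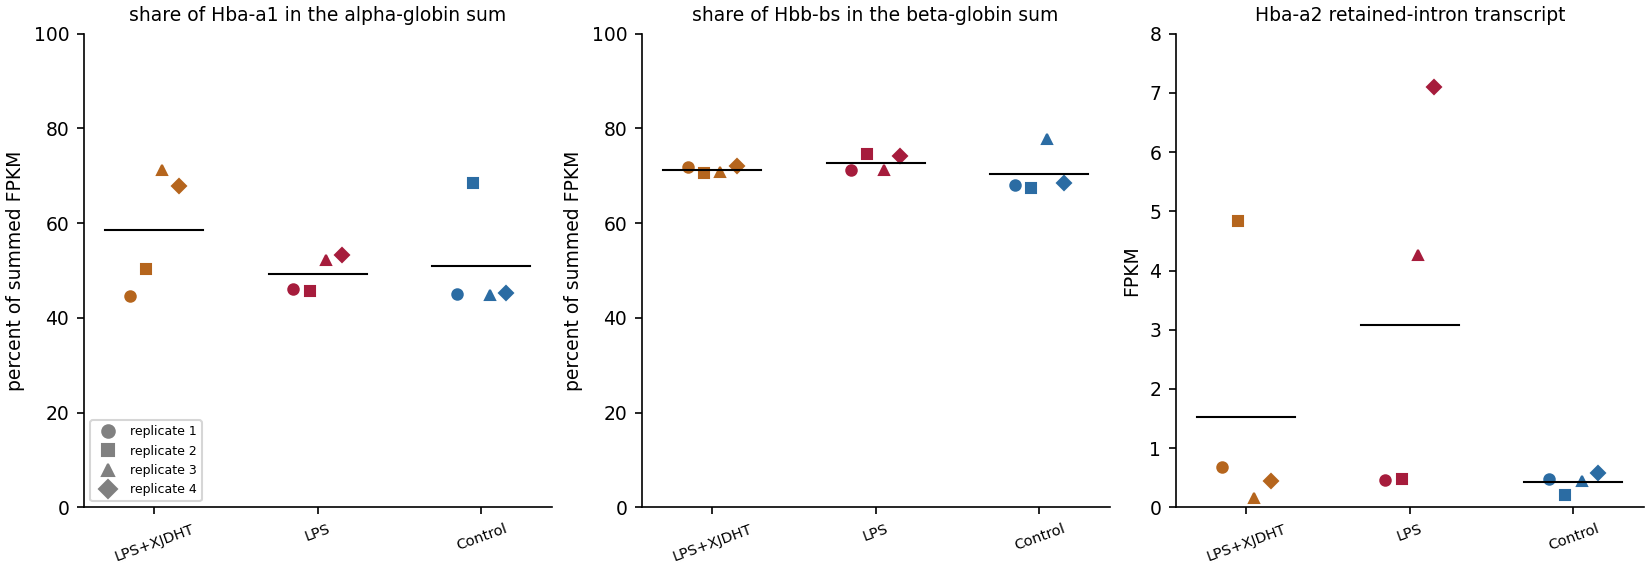
Percent of the summed FPKM of each haemoglobin pair held by Hba-a1 and by Hbb-bs, and FPKM of the Hba-a2 transcript with a retained intron, by library with the group mean as a line. Hba-a1 was at 68.4% in Control replicate 2 and between 44.9 and 45.3% in the other Control libraries, and the retained-intron transcript reached 7.10 FPKM in LPS replicate 4.

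Within LPS and LPS+XJDHT, hearts with more alpha transcripts mostly had more beta transcripts, while in Control they did not. Control replicate 2 was lowest in the alpha sum and highest in the beta sum, and Control replicate 3 the reverse. On the log2(FPKM + 1) scale with group means subtracted, the sums had Pearson's r = 0.75 over 12 libraries (permutation within groups, adjusted p = 0.024 over 4 relations) and Spearman's rho = 0.71 (adjusted p = 0.044). Without LPS replicate 2 and LPS+XJDHT replicate 3, the libraries farthest from the median, r was 0.55. Alas2 and the haemoglobin sum had r = 0.51 (adjusted p = 0.26) and rho = 0.17 (adjusted p = 0.67), and r = 0.13 without LPS replicate 2 and Control replicate 2, so this relation rested on those libraries. Hba-a1 and Hba-a2 had r = 0.86 (adjusted p = 0.0058) and rho = 0.88 (adjusted p = 0.0063), and r = 0.85 without LPS replicates 2 and 4. Hbb-bs and Hbb-bt had r = 0.90 (adjusted p = 0.0018) and rho = 0.90 (adjusted p = 0.0014), and r = 0.74 without the same 2 libraries. The genes of a pair share reads.

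Among 10054 other genes with a mean of at least 1 FPKM, the 6 whose within-group deviations were most like those of the haemoglobin sum were Hspb8, a small heat shock protein of muscle (Pearson's r = 0.95 over 12 libraries), Ranbp1, of nuclear transport (0.94), Gdf15, a stress-induced cytokine (0.94), Fpgs, which adds glutamate to folates (0.94), C1qbp, a mitochondrial matrix protein (0.93), and Hgh1 (0.93). LPS replicate 2 was the highest LPS library for each of the 6, and without it r was between 0.84 and 0.89. Gdf15 had 10.4, 37.6, 1.07 and 1.05 FPKM in LPS, against 0.953, 0.905, 0.441 and 0.728 FPKM in Control. The likeness was within groups and did not extend to the difference between them, as Ranbp1 rose with LPS to 27.1 ± 6.02 FPKM, against 17.3 ± 0.534 FPKM in Control (difference of 0.60 on the log2 scale, limma adjusted p = 0.0054), and Fpgs rose too (0.93, limma adjusted p = 0.00091).

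Of 12 genes listed as other globins, only Mb and Cygb had values in all libraries. Mb, the oxygen store myoglobin of heart muscle, averaged 2582 ± 267 FPKM in LPS+XJDHT, 3525 ± 945 FPKM in LPS and 5425 ± 970.1 FPKM in Control (SD, n = 4 each). It fell with LPS by 0.65 on the log2 scale (limma adjusted p = 0.014) and in LPS+XJDHT against Control by 1.06 (limma adjusted p = 0.00079). Cygb, cytoglobin, did not pass between LPS and Control (log2 fold change -0.14, limma adjusted p = 0.55). Embryonic globin genes such as Hba-x and Hbb-y were not analysed here.

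The enzymes of haem synthesis after ALAS are not limited to red cells. Of the 8 listed, 2 fell and 0 rose in LPS against Control, with a median log2 fold change of -0.14, against 0.16 over all genes. Of all genes tested 12.03% fell and 26.6% rose. Cpox, coproporphyrinogen oxidase, fell to 4.28 ± 0.465 FPKM in LPS, with 16.3 ± 0.478 FPKM in Control (SD, n = 4 each; log2 fold change -1.72, limma adjusted p = 1.0e-06). With XJDHT it averaged 5.77 FPKM (log2 fold change 0.35 against LPS, limma adjusted p = 0.96). Alad, the second enzyme of the pathway, fell by 0.47 (limma adjusted p = 0.032), a call lost without LPS replicate 2 (limma adjusted p = 0.082). Without that library 1 of the 8 fell and 1 rose. Alas1, the form of tissues other than the red cell line, averaged 20.9 ± 4.75 FPKM in LPS and 25.5 ± 13.6 FPKM in Control (log2 fold change -0.15, limma adjusted p = 0.76), and Fech, which inserts the iron, 38.7 ± 2.77 FPKM in LPS and 35.9 ± 1.61 FPKM in Control (limma adjusted p = 0.35). In LPS+XJDHT against Control Cpox alone of the 8 fell. After median-ratio scaling 4 fell, with Alad (limma adjusted p = 0.0058), Uros (0.010) and Urod (0.035) gained, and after rescaling without mitochondrial genes 3 fell, with Alad (0.032) and Uros (0.034) gained.

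Of 12 genes of mitochondrial transport and regulation of haem synthesis, 7 fell and 1 rose in LPS against Control, where 12.03% of all genes fell and 26.6% rose. The list's median log2 fold change was -0.34. Slc25a38, the glycine carrier of haem synthesis, fell by 1.40 (limma adjusted p = 0.0078) and Isca1, of iron-sulphur cluster assembly, by 0.60 (limma adjusted p = 0.00086). Tmem14c, a porphyrin transporter, fell by 0.47 (limma adjusted p = 0.0034), and Abcb6, Abcb10 and Glrx5 also fell. Flvcr1, the haem exporter, rose by 0.67 (limma adjusted p = 0.0092). Slc25a37, mitoferrin of the erythroid line, averaged 3.04 ± 1.01 FPKM in LPS and 3.02 ± 0.590 FPKM in Control (limma adjusted p = 0.96). Without LPS replicate 2, 6 fell and 1 rose, Abcb10 being lost (limma adjusted p = 0.054). Mitochondrial transcripts took 23.4 to 27.7% of fragments in LPS and 27.9 to 32.2% in Control, and after rescaling without them 7 of the 12 still fell and 1 rose, with 0 calls lost. In LPS+XJDHT against Control 5 fell and 1 rose. After median-ratio scaling 7 fell and 0 rose, with Abcb10 (limma adjusted p = 0.0063) and Isca2 (0.0061) gained and Flvcr1 lost (0.078).

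Of 20 listed genes of the red cell membrane, 12 were tested, 3 fell and 1 rose in LPS against Control, with a median log2 fold change of -0.22. Over all genes 12.03% fell and 26.6% rose. Tmod1, tropomodulin, which caps actin in red cells and in heart muscle, fell to 38.2 ± 4.25 FPKM in LPS, against 87.0 ± 9.50 FPKM in Control (a log2 fold change of -1.17, limma adjusted p = 6.2e-06). Ank1, ankyrin, fell by 1.62 (limma adjusted p = 0.0023), and Aqp1, a water channel of red cells and of endothelium, by 0.90 (limma adjusted p = 0.00039). Slc2a1, the glucose transporter GLUT1, rose by 1.57 (limma adjusted p = 0.0059). Gypc, glycophorin C, passed upward without LPS replicate 2 (0.35, limma adjusted p = 0.048, and 0.26, adjusted p = 0.15, with it). In LPS+XJDHT against Control 3 fell and 2 rose. After median-ratio scaling 3 fell and 0 rose, with Gypc (limma adjusted p = 0.069) and Slc2a1 (0.066) lost.

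Of 14 listed genes of the red cell cytosol, 7 were tested and 1 fell in LPS against Control, Prdx2, an abundant peroxidase of red cells that other tissues make too (log2 fold change -0.29, limma adjusted p = 0.0092). Of all genes tested 12.03% fell and 26.6% rose. Bpgm, which makes bisphosphoglycerate, a ligand that lowers the oxygen affinity of haemoglobin, averaged 6.44 ± 1.33 FPKM in LPS and 7.85 ± 0.460 FPKM in Control (limma adjusted p = 0.14). Ahsp, the chaperone of free alpha chains, and Car1 were not analysed here. The list's median log2 fold change was -0.093, and in LPS+XJDHT against Control 1 fell and 1, Ube2o, rose. After median-ratio scaling 2 fell there and 0 rose, with Bpgm gained (limma adjusted p = 0.010) and Ube2o lost (0.23). Of 14 listed erythroid transcription factors and receptors, 6 were tested and 1 rose in LPS against Control, where 26.6% of all genes rose. This was Ldb1 (log2 fold change 0.43, limma adjusted p = 0.016), whose call was lost after median-ratio scaling (0.25, limma adjusted p = 0.15). Tfrc, the transferrin receptor that brings in iron, averaged 12.7 ± 10.6 FPKM in LPS and 29.99 ± 10.3 FPKM in Control, short of the threshold with all libraries (log2 fold change -1.36, limma adjusted p = 0.051) and past it without LPS replicate 2 (-1.82, limma adjusted p = 0.0084). The list's median log2 fold change was 0.23, and in LPS+XJDHT against Control 1 rose and 1, Tfrc, fell. Over all genes 10.7% fell and 28.5% rose in LPS+XJDHT against Control. In LPS+XJDHT against LPS 0 members of these 6 lists passed by limma, where 0.113% of all genes did.

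**Figure D5:**
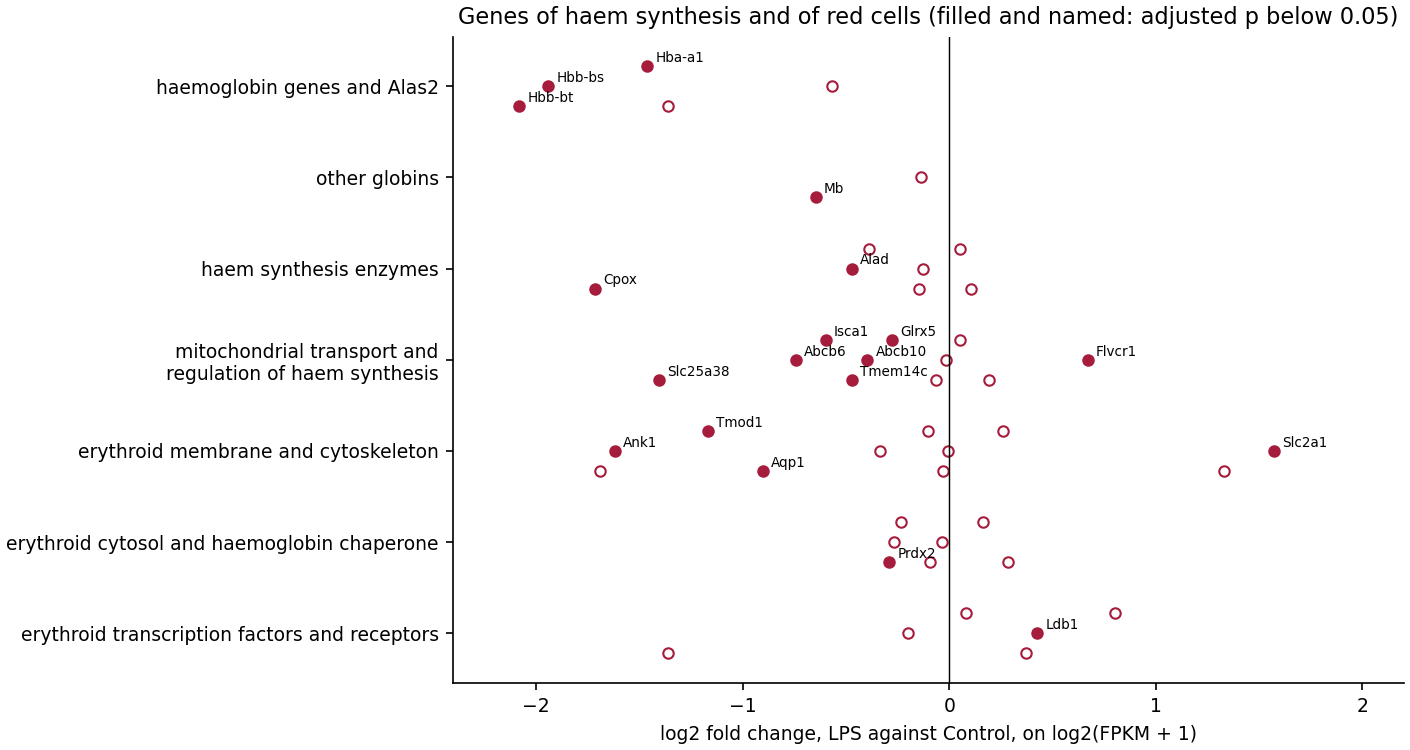
Log2 fold change of LPS against Control on log2(FPKM + 1) for the haemoglobin genes, Alas2 and the tested members of 6 gene lists that are reported here, each point a gene, filled and named where the limma adjusted p was below 0.05. Hbb-bt at -2.08 and Hbb-bs at -1.94 lie farthest to the left, Cpox at -1.72 stands apart from the other haem synthesis enzymes, and Slc2a1 at 1.57 lies farthest to the right.

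Markers of other blood cells and of the heart wall were summed over each list. Neutrophil markers with values, 8 of 10, summed to 75.6 to 153 FPKM in LPS+XJDHT, 80.0 to 118 FPKM in LPS and 1.25 to 2.73 FPKM in Control. All 5 tested rose with LPS, S100a8 by 4.71 on the log2 scale (limma adjusted p = 1.3e-07), where 26.6% of all genes rose. Of the platelet markers 3 of 10 had values and summed to 27.5 to 38.7 FPKM in LPS+XJDHT, 45.5 to 58.0 FPKM in LPS and 17.2 to 29.5 FPKM in Control. Pf4, platelet factor 4, rose with LPS to 48.8 ± 4.65 FPKM, with 19.6 ± 5.94 FPKM in Control (log2 fold change 1.31, limma adjusted p = 0.00017), while Ppbp did not pass (log2 fold change -0.34, limma adjusted p = 0.25). Ppbp averaged 1.33 FPKM in LPS and 1.88 FPKM in Control, so the platelet sum is nearly all Pf4 and follows that gene. Of the cells carried by the blood, neutrophils had higher markers and platelets mixed ones in the libraries in which haemoglobin was lower. Their part in the result was not tested, and the T cell marker with values is given below.

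Endothelial markers, with values for all 10, summed to 897 to 1096 FPKM in LPS+XJDHT, 807 to 1154 FPKM in LPS and 647 to 749 FPKM in Control, and 2 of 10 passed upward with LPS, Fabp4 (log2 fold change 0.63, limma adjusted p = 0.0020) and Cldn5 (1.08, limma adjusted p = 0.0027), where 26.6% of all genes rose. Cardiomyocyte markers with values, 11 of 12, summed to 8498 to 12547 FPKM in LPS+XJDHT, 9970 to 12244 FPKM in LPS and 19662 to 22295 FPKM in Control. With LPS 6 of 10 tested fell, where 12.03% of all genes fell. Among T cell markers Cd28 alone had values and was not tested. It had 0.558 to 0.707 FPKM in LPS+XJDHT, 0.351 to 0.547 FPKM in LPS and 0.625 to 1.10 FPKM in Control. Every LPS library was thus below every Control library for Cd28, as for the haemoglobin sum. B cell markers were not analysed here. The part of these cells in the haemoglobin results was not tested.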

How the data were processed

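Total RNA from 12 hearts, depleted of ribosomal RNA per the labels' protocols, was sequenced, 4 libraries per group. The deposited values are FPKM per transcript as made by the authors. The unit is named by neither header nor label and was read from the values, since FPKM times transcript length came out as whole fragments, within 0.1, for 98.5 to 98.7% of values. The submitters' processing notes name mm10 and limma, and the aligner is not given in the sources used here. Transcripts were mapped to GENCODE genes (GRCm38), and FPKM were summed per gene over the 24723 annotated transcripts listed for all libraries. The 43 Ensembl transcripts outside the annotation and 10120 assembled ones were left out, as were transcripts listed for LPS+XJDHT only or for LPS and Control only.

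Log2(FPKM + 1) was fitted over genes that 4 or more libraries had at 1 FPKM or more, with limma 3.58.1 (R 4.3.3), 1 mean per group and an intensity trend, without covariates. Tests were two-sided, with Benjamini-Hochberg adjustment over all 11509 genes and a threshold of 0.05. Log2 fold changes on this scale understate the change of low genes. For the alpha and beta sums each pair replaced its 2 genes in the same table. Ratios were compared with exact permutation tests over 70 splits, and correlations with 100000 permutations within groups. Python 3.11.15, NumPy 2.4.6, pandas 2.3.3, SciPy 1.17.1 and matplotlib 3.10.9 were used. The fit was tested on simulated data. P-values of group differences set the difference against the spread between these libraries. In limma this is 1 spread per gene shared by the groups. On the FPKM scale the groups were unlike in it. For the alpha sum the SD was 21.5% of the mean in Control and 60.9% in LPS. The beta sum had 13.9% in Control and 57.6% in LPS.

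The genes and lists were chosen with earlier results of these data known. Named genes are the 5 genes, up to 5 members per list with the smallest adjusted p in LPS against Control, and the 6 genes most like the haemoglobin sum within groups. Members outside this rule were named where their call changed with a setting or as not analysed, after their values were seen. Alternatives were other filters, pseudocounts of 0.1 and 0.5, scalings, sample quality weights, limma-voom on the whole fragments, a fit of 2 groups, all transcripts, and leaving out each library. Summed fragments per M, and list counts without LPS replicate 2, were added after seeing the data. Columns of values not used numbered 0. Some list members are counted but not reported by name here. Gene symbols in the lists were matched through RefSeq synonyms, and the upstream sequences are from RefSeq, in which all 5 genes were matched.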

Additional observations from a re-analysis of the deposited data

Results flagged for a closer look

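Among 41 groups of 4 libraries checked for a single library far from its group, 5 were flagged. Chance flags about 1 in 20 groups, and the values below share reads and libraries. The ratio of the alpha to the beta sum was lowest in LPS replicate 4, at 0.754, where the other LPS libraries lay between 0.880 and 0.903. The share of Hba-a1 in the alpha sum was highest in Control replicate 2, at 68.4%, against 44.9 to 45.3% in the other Control libraries. The share of Hbb-bs in the beta sum was highest in Control replicate 3, at 77.8%, against 67.5 to 68.5% in the other Control libraries. The retained-intron transcript of Hba-a2 was highest in LPS+XJDHT replicate 2, at 4.83 FPKM, where the other LPS+XJDHT libraries lay between 0.161 and 0.686 FPKM. The retained-intron transcript of Hba-a1 was highest in LPS replicate 2, at 1.24 FPKM, where the other LPS libraries lay between 0.470 and 0.591 FPKM.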

How the results depend on the processing

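No paired analysis was possible because the labels give no numbers shared between groups, and the replicate numbers used here only name the libraries. Under the alternatives tried for the 5 genes, the 2 sums and the ratios, no called value changed sign. In LPS against Control, the log2 fold change of Alas2 passed with sample quality weights (-0.70, limma adjusted p = 0.036) and with all annotated transcripts (-1.07, adjusted p = 0.020), and ranged from -0.85 to -0.40 when 1 library was left out. The alpha sum ranged from -1.81 to -1.18 when 1 library was left out, and Hba-a2 passed with sample quality weights (-1.73, adjusted p = 0.046). With a limit of 5 FPKM Alas2 was not tested. The beta sum stayed past the threshold in LPS against Control under every alternative (-2.34 to -1.79). In LPS+XJDHT against LPS 0 of the 5 genes and 2 sums passed under any alternative, limma-voom included. The number of genes called there, 13, was 43 without a filter, 1 with a limit of 5 FPKM, 21 after rescaling without mitochondrial genes, and 4 to 16 when 1 library was left out.

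Of the differences that did not pass, 4 changed sign when 1 library was left out. The alpha to beta ratio of LPS+XJDHT minus Control ranged from -0.087 to 0.094, the share of Hba-a1 in LPS minus Control from -3.59 to 4.27 percentage points, the share of Hbb-bs in LPS+XJDHT minus Control from -0.11 to 3.32, and Alas2 per 1000 FPKM of haemoglobin in LPS+XJDHT minus LPS from -1.51 to 0.41. The cause was not tested. Median-ratio scaling changed the sign of 0 called list members. It brought Uros (-0.55, limma adjusted p = 0.028), Urod (-0.31, 0.037), Bpgm (-0.44, 0.015), Bsg (-0.53, 0.023) and Tfrc (-1.55, 0.033) past the threshold in LPS against Control. Alas2 is listed with 1 transcript for LPS+XJDHT, so its value with all transcripts is given for LPS and Control only.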
